A study of Oryctolagus cuniculus with 36 samples.

Results

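ENSOCUG00000013891, ENSOCUG00000029096 and ENSOCUG00000016287 are 3 rabbit genes, of 9419 listed Ensembl gene IDs, that took large shares of the sequenced reads in ileum or liver. The members were chosen by their share of a library's reads. ENSOCUG00000013891 took the most reads of 1 vehicle library of ileum, ENSOCUG00000029096 took the most reads of most ileum libraries, and ENSOCUG00000016287 took the most reads of 1 vehicle library of the non-embolized lobe. Their high levels in those libraries are therefore description and carry no test. The files give the IDs without names, and no ID could be matched to a symbol, so the genes are described by their IDs alone and no function is given for them. Likewise the labelled tissues could not be checked against named marker genes.

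Wild-type rabbits, labelled WT, received obeticholic acid (OCA) or vehicle before portal vein embolization. There were 6 libraries in each of 6 groups: the embolized cranial liver lobe, the caudal lobe that was not embolized, and the terminal ileum, each after OCA and after vehicle. Every group comes from embolized rabbits, so there is no unoperated group, and the non-embolized lobe is itself part of an operated liver. Age, OCA dose and sampling time are not given in the labels. Nor do they state that replicates are different animals, and the p-values below then describe a spread among libraries that may be technical.

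Embolization closes portal vein branches, after which the lobes they served lose mass and the lobes still perfused gain it. OCA is a semisynthetic bile acid and an agonist of FXR, a receptor through which cells sense bile acids. Bile acids are made in the liver and taken back up in the terminal ileum. In bulk RNA sequencing the reads of a library are a fixed sum, so a transcript that takes a large share leaves fewer reads for all others. The share of reads of a gene depends on its transcript length as well as on its abundance. Gene lengths were not available for these IDs, so shares of different genes are shares of reads and not of RNA molecules.

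Every share below is a percentage of the reads on the 9419 listed genes, not of the whole library. These reads numbered 11.2 to 24.5 M (M, mega) per ileum library and 12.01 to 27.3 M per liver library. Normalized counts are the authors' values, scaled within ileum and within liver separately, so they are compared only within a tissue table. Ileum OCA 1 and ileum vehicle 6 stood apart from the rest. They held the highest or lowest value of the 12 ileum libraries for 43.1% and 42.6% of the 9010 tested genes, while no other ileum library exceeded 22.7%. Results that rest on these libraries are given with and without them. In liver the highest such share was 17.2%, in embolized vehicle 6. In bulk tissue, fewer cells of a type and less RNA per cell cannot be told apart.

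ENSOCUG00000016287 ranked first in all 24 liver libraries, in both lobes and after both treatments. ENSOCUG00000029096 ranked first in 11 of 12 ileum libraries, and in liver it ranked 2 in 18 of 24 libraries, 3 in 2 and 4 in 4 libraries. The exception in ileum was vehicle 6, where ENSOCUG00000013891 ranked first, then ENSOCUG00000011546 and then ENSOCUG00000029096. The 3 genes together took 17.1 to 24.7% of the reads of a liver library, with a median of 22.3%. In ileum they took 2.64 to 6.35% in the 11 libraries other than vehicle 6 and 29.8% in vehicle 6. The 10 most abundant genes of each library took 31.2 to 40.6% in liver, 9.66 to 18.5% in those 11 ileum libraries and 43.1% in ileum vehicle 6.

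**Figure D1:**
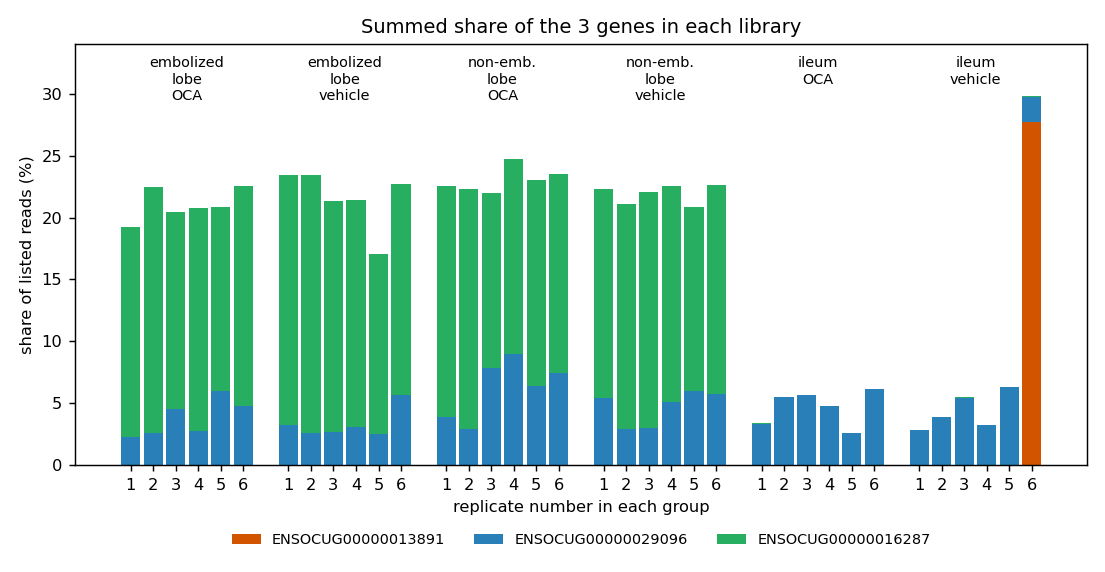
Stacked bars give the percentage of listed reads taken by the 3 genes in each of the 36 libraries, with replicate numbers on the horizontal axis and groups named above. ENSOCUG00000016287 made up most of every liver bar, ENSOCUG00000029096 made up nearly all of every ileum bar except vehicle 6, and ENSOCUG00000013891 took 27.7% of ileum vehicle 6.

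ENSOCUG00000013891 led 1 library, ileum vehicle 6, and took at most 0.0488% of the reads in each of the others. In ileum it had 174 to 2013 normalized counts after OCA, with a median of 379. After vehicle it had 157 to 506 in replicates 1 to 5 and 5480756 in replicate 6. Ileum vehicle 6 thus stood 2723-fold above the next highest ileum library, which was OCA 1, and 19699-fold above the median of the other 11.

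In reads, ileum vehicle 6 held 6.78 M of ENSOCUG00000013891 among 24.5 M, a share of 27.7%. Counting error on that share was 0.0177 percentage points (half-width of the Wilson 95% interval). The other ileum libraries gave the gene 0.000962 to 0.0171% of their reads. Such intervals cover counting error only, since the labels name no molecular identifiers. The widest interval of the gene in ileum had a half-width of 16.2% of the share.

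ENSOCUG00000011546, next below ENSOCUG00000013891 in ileum vehicle 6, took 7.93% of that library's reads. It had 1567525 normalized counts there, against 2.12 to 314 in the other 11 ileum libraries. Both genes were next highest in ileum OCA 1. Together they took 35.7% of the reads of ileum vehicle 6, or 8.72 M, and left 15.7 M for the rest. They were the 2 genes, of 9010 tested, that stood over 100-fold above every other ileum library in vehicle 6.

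No liver library held ENSOCUG00000013891 at a comparable share. The gene had 75 to 5785 normalized counts over the 24 liver libraries and took at most 0.0488% of their reads. ENSOCUG00000011546 had 0 to 380 there, with a median of 5.71. In liver ENSOCUG00000013891 ranked between 216 and 5538 among the listed genes.

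The ileum comparison of OCA with vehicle for ENSOCUG00000013891 was tested without vehicle 6, the library that chose the gene. The log2 fold change was 0.84 ± 0.57 (SE, 6 OCA and 5 vehicle libraries; limma adjusted p = 0.759), with a 95% interval of −0.39 to 2.07. With vehicle 6 included the value turned to −1.56. Without both ileum vehicle 6 and ileum OCA 1 it was 0.41 (limma adjusted p = 0.683). No member was called in ileum, where limma called 0% of genes in either direction, with and without vehicle 6. With all 12 libraries, 688 ileum genes had an unadjusted limma p under 0.05, while edgeR called 0 genes and DESeq2 called 80.

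Between the lobes ENSOCUG00000013891 was higher on the embolized side after both treatments. After OCA, the embolized lobe had 662 to 5785 normalized counts with a median of 1044, against 113 to 379 with a median of 140 in the non-embolized lobe. The groups did not overlap. After vehicle, the embolized lobe had 139 to 4453 with a median of 632, against 75 to 183 with a median of 137 in the non-embolized lobe. Here the groups overlapped, through embolized vehicle 4 at 139.

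The rise in the embolized lobe was 2.98 ± 0.58 on the log2 scale after OCA (SE, n = 6 per group; limma adjusted p = 0.0004), an estimated 7.91-fold with a 95% interval of 3.45 to 18.1. After vehicle it was 2.51 ± 0.58 (limma adjusted p = 0.00259), an estimated 5.69-fold with an interval of 2.48 to 13.04. Of all tested genes, limma called 32.1% between the lobes after OCA and called 16.5% as higher in the embolized lobe, while 14.5% had groups that did not overlap. After vehicle it called 25.5%, of all genes 11.7% were called higher, and 9.49% had groups that did not overlap. Calls of this kind were thus common among all genes, and the median log2 difference over them was 0.01 after OCA and 0.03 after vehicle. Two-sided exact permutation tests over the libraries gave p = 0.00216 after OCA, the smallest that 6 against 6 allows, and p = 0.00866 after vehicle, unadjusted. Same-numbered libraries of the vehicle lobes deviated together, which does not show that they share a rabbit. With exchange only within these 6 pairs the exact permutation p after vehicle was 0.0625, which is not past 0.05 (smallest possible 0.03125, embolized higher in 5 of 6 pairs). No such test was run after OCA, where 6 pairs also allow no exact permutation p below 0.03125. With same-numbered lobes as a replicate block, in OCA as well as vehicle libraries, limma gave an adjusted p of 0.00234 after vehicle. Every embolized sample is cranial and every non-embolized one caudal, and the effects of embolization and of the site cannot be told apart.

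The size of the rise differed widely between libraries. Same-numbered libraries of the lobes stood in a ratio of 3.26 to 43.5 after OCA, where OCA 4 had the highest ratio, and of 0.98 to 28.1 after vehicle, where vehicle 4 had the lowest and vehicle 5 the highest. Within the embolized lobe the SD of log2 normalized counts was 1.19 after OCA and 1.69 after vehicle, above the SD of 95.1% and 96.4% of tested genes. In the non-embolized lobe it was 0.62 and 0.45, against medians over all tested genes of 0.38 and 0.34. The log2 difference between lobes after vehicle ran from 1.99 without embolized vehicle 5 to 2.99 without embolized vehicle 4. After OCA it ran from 2.55 to 3.22 when single libraries were left out. Within replicates 4 to 6 alone the vehicle comparison was 2.66 and was not called (limma adjusted p = 0.129).

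OCA against vehicle was not called for ENSOCUG00000013891 in either lobe. In the embolized lobe the log2 fold change was 0.82 ± 0.58 (SE, n = 6 per group; limma adjusted p = 0.579), with a 95% interval of −0.38 to 2.02, where limma called 0.196% of all genes. It was 0.34 without embolized vehicle 4, 0.39 without embolized OCA 4 and 1.34 without embolized vehicle 5 (limma adjusted p = 0.161), and without vehicle 5 limma called 298 genes in place of 17. In the non-embolized lobe it was 0.34 ± 0.58 (limma adjusted p = 0.875), with an interval of −0.85 to 1.54, where limma called 0.624%. That SE rests on a spread shared with the more variable embolized lobe. Fitted on the 2 non-embolized groups alone, the response there was 0.34 ± 0.28 and also not called (limma adjusted p = 0.608). The difference between these responses was 0.48 ± 0.82 (limma adjusted p = 0.918; limma called 0 genes for this interaction, with 631 at an unadjusted p under 0.05, edgeR 0 and DESeq2 5). By medians of normalized counts the liver groups ran from embolized OCA through embolized vehicle and non-embolized OCA to non-embolized vehicle, and each neighbour in that order overlapped the next.

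**Figure D2:**
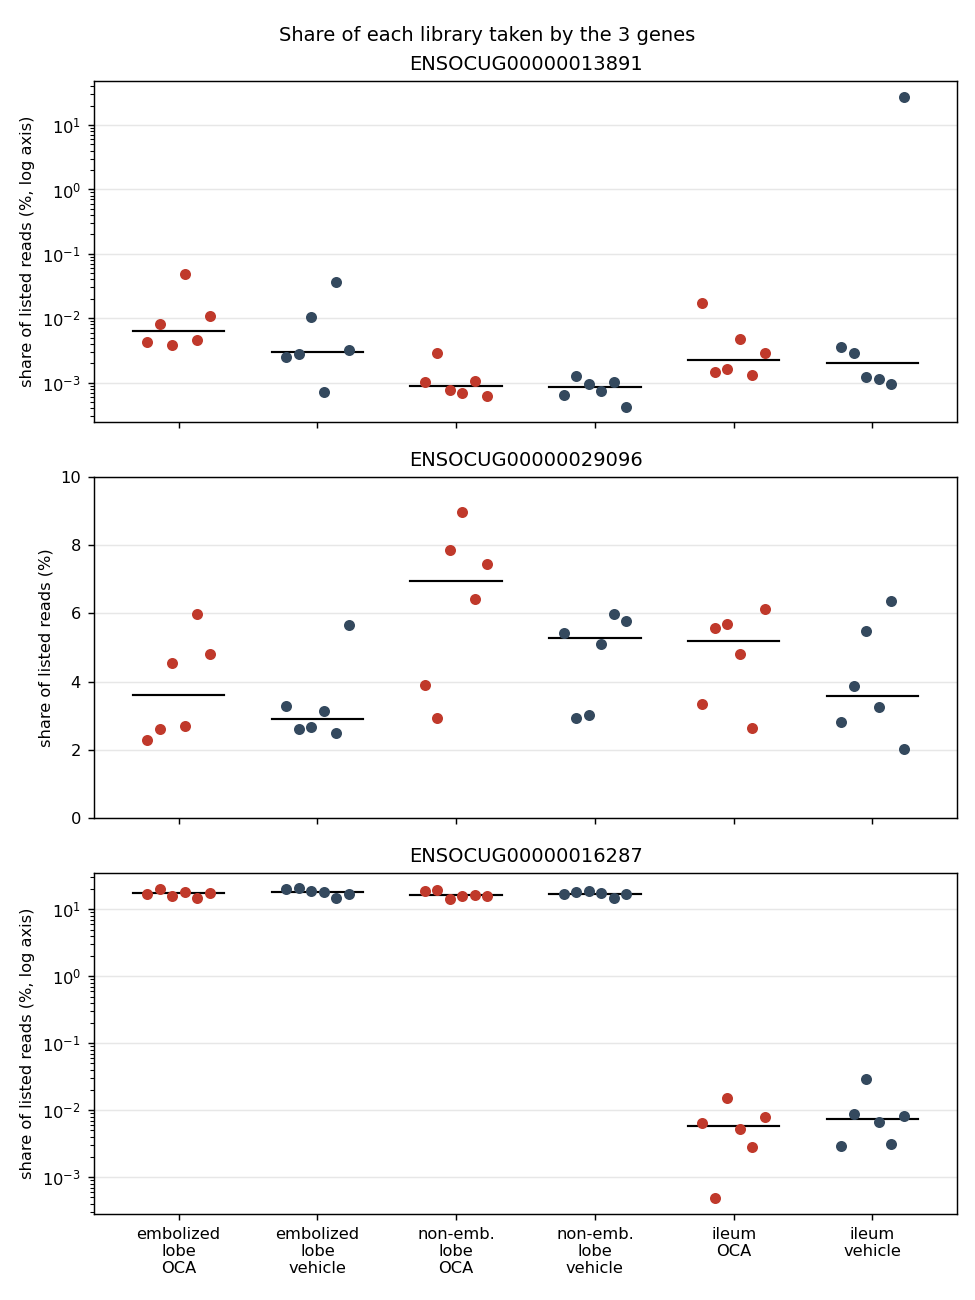
Each point is 1 library, red after OCA and dark after vehicle, and each line is the median of 6; vertical axes give the percentage of listed reads, on log axes for the upper and lower panels and on a linear axis from 0 for the middle one. ENSOCUG00000013891 sat below 0.05% in every library except ileum vehicle 6, ENSOCUG00000029096 sat between 2.03 and 8.96% in all 36, and ENSOCUG00000016287 held 14.1 to 20.9% in liver and at most 0.0291% in ileum.

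The genes whose pattern was most like that of ENSOCUG00000013891 differed between the tissues. Likeness was the Pearson correlation of log2 normalized counts over all libraries of a table, given as description. Over the 12 ileum libraries the closest were ENSOCUG00000011546 (r = 0.97), ENSOCUG00000015370 (0.96) and ENSOCUG00000011168 (0.96). Without vehicle 6 the 3 correlations were 0.85, 0.51 and 0.58, and without ileum OCA 1 as well they were 0.73, 0.11 and 0.10. The last 2 thus rested on these libraries, and the first was lower without them. ENSOCUG00000011546 was itself near the floor in most ileum libraries, with a median of 10.5 normalized counts over the 12 and a lowest of 2.12. Over the 24 liver libraries the closest were ENSOCUG00000008603 (0.96), ENSOCUG00000010425 (0.96) and ENSOCUG00000011090 (0.95). All 3 were highest in embolized OCA 4 and next highest in embolized vehicle 5, the libraries where ENSOCUG00000013891 was also highest. ENSOCUG00000010425 reached 2068 normalized counts in embolized OCA 4 against a median of 24.6 over liver, and ENSOCUG00000011090 reached 12811 against 803. ENSOCUG00000008603 was near the floor, at 0 to 139 normalized counts over liver with a median of 3.68. Its correlation thus leans on the libraries where it was high. After group means were removed, the liver correlations were 0.90, 0.87 and 0.88.

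ENSOCUG00000029096 was abundant in all 36 libraries. It took 2.03 to 6.35% of the reads in ileum, with a median of 4.33%, and 2.29 to 8.96% in liver, with a median of 4.22%. The widest Wilson 95% interval had a half-width of 0.0137 percentage points. Its narrowest lead in ileum was in OCA 1, at 3.36% against 2.66% for ENSOCUG00000008481. The ileum range lay almost wholly inside the liver range.

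In the embolized lobe ENSOCUG00000029096 had 0.32 to 1.11 M normalized counts after OCA with a median of 0.60 M, against 0.31 to 1.22 M after vehicle with a median of 0.56 M. In the non-embolized lobe it had 0.39 to 1.74 M after OCA with a median of 1.198 M, against 0.43 to 1.03 M after vehicle with a median of 0.94 M. In ileum it had 0.35 to 1.05 M after OCA with a median of 0.84 M, against 0.40 to 1.08 M after vehicle with a median of 0.50 M. All these groups overlapped broadly, and libraries of 1 group differed up to 4.43-fold.

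None of the differences in ENSOCUG00000029096 was called. Its high level in both arms chose it in ileum, while the difference between arms was not used, so the test is not fully independent of the choice; that difference was 0.23 ± 0.62 on the log2 scale (SE, n = 6 per group; limma adjusted p = 0.912), with a 95% interval of −1.11 to 1.57. Without ileum vehicle 6 and ileum OCA 1 it was 0.28. OCA over vehicle was 0.37 ± 0.42 in the non-embolized lobe (limma adjusted p = 0.787). On the embolized side it was 0.04 ± 0.42 (limma adjusted p = 0.98). The embolized lobe stood at −0.75 ± 0.42 relative to the non-embolized lobe after OCA (limma adjusted p = 0.185) and at −0.43 ± 0.42 after vehicle (limma adjusted p = 0.485). The interval after OCA ran from −1.62 to 0.12, which reaches down to 0.324-fold. The intervals were −0.51 to 1.24 for OCA in the non-embolized lobe, −0.83 to 0.92 for OCA in the embolized lobe and −1.30 to 0.44 between lobes after vehicle. The interaction was −0.32 ± 0.60 (limma adjusted p = 0.925). Two-sided exact permutation tests gave unadjusted p-values from 0.132 to 0.926 for the 5 comparisons of groups.

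In ileum vehicle 6 the share and the normalized count of ENSOCUG00000029096 ranked differently. Its share there, 2.03%, was the lowest of all 36 libraries. Its normalized count there, 0.40 M, lay within the range of the other 11 ileum libraries, 0.35 to 1.08 M. Counted over the reads outside ENSOCUG00000013891 and ENSOCUG00000011546, its share in vehicle 6 was 3.16%, also within the 2.64 to 6.35% of the other 11.

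The genes most like ENSOCUG00000029096 carried neighbouring ID numbers in both tissues. In ileum they were ENSOCUG00000029103, ENSOCUG00000029099 and ENSOCUG00000029086, with r of 0.98, 0.98 and 0.97 over 12 libraries. In liver they were ENSOCUG00000029108, ENSOCUG00000029115 and ENSOCUG00000029099, with r of 0.99, 0.98 and 0.97 over 24 libraries. Without ileum vehicle 6 the ileum values were 0.98, 0.98 and 0.97. For comparison, the median correlation of a tested gene with ENSOCUG00000029096 was 0.01 in ileum and −0.01 in liver.

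This run of IDs was then taken as a block, after its values had been seen. The tables list 15 IDs from ENSOCUG00000029082 to ENSOCUG00000029115, ENSOCUG00000029096 included. Together they took 6.70 to 24.2% of the reads of a liver library, with a median of 11.6%, and 6.47 to 17.1% of an ileum library, with a median of 12.1%. By group the median of this sum was 9.98% in embolized OCA, 7.39% in embolized vehicle, 17.6% in non-embolized OCA and 13.04% in non-embolized vehicle libraries, with overlapping ranges. Correlations of the 14 others with ENSOCUG00000029096 ran from 0.69 to 0.99 in liver and from 0.70 to 0.98 in ileum. ENSOCUG00000029096 made up 31.8 to 42.2% of the sum in liver and 31.5 to 40.6% in ileum, where the sum includes the gene itself. What these IDs have in common beyond their numbers is not given in the sources used here.

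ENSOCUG00000016287 was abundant throughout liver and scarce in ileum, and of the 3 genes it varied least in each of the 4 liver groups. It took 14.1 to 20.9% of the reads of every liver library, with a median of 17.2%, and 0.000483 to 0.0291% of the reads of an ileum library, with a median of 0.00656%. Non-embolized vehicle 1, the library that chose it, gave it 16.8% and gave ENSOCUG00000029096, next below, 5.43%. In liver the gene took 1.76 to 6.69 times the reads of the next gene. With so many reads the widest Wilson 95% interval in liver had a half-width of 0.0219 percentage points.

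In the embolized lobe ENSOCUG00000016287 had 2.14 to 3.06 M normalized counts after OCA with a median of 2.77 M, against 1.79 to 4.31 M after vehicle with a median of 3.55 M. In the non-embolized lobe it had 2.41 to 3.05 M after OCA with a median of 2.71 M, against 2.33 to 3.27 M after vehicle with a median of 2.81 M. All 4 groups overlapped. The SD of log2 normalized counts was 0.18 in embolized OCA, 0.45 in embolized vehicle, 0.12 in non-embolized OCA and 0.17 in non-embolized vehicle libraries. These SDs exceeded those of 9.25, 51.2, 3.09 and 12.3% of tested genes in the same groups.

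No difference of ENSOCUG00000016287 within liver was called. OCA over vehicle was −0.21 ± 0.33 on the log2 scale in the embolized lobe (SE, n = 6 per group; limma adjusted p = 0.83), an interval of 0.539-fold to 1.38-fold. Comparisons with the non-embolized vehicle group were tested without its replicate 1, which left 5 libraries. OCA over vehicle in the non-embolized lobe was then −0.03 ± 0.36 (limma adjusted p = 0.987), an interval of 0.587-fold to 1.64-fold, where limma called 0.416% of genes. Embolized over non-embolized lobe was −0.01 ± 0.33 after OCA (limma adjusted p = 0.99) and 0.18 ± 0.36 after vehicle (limma adjusted p = 0.765), where limma called 21.1% of genes without that library. The interaction was −0.18 ± 0.49 (limma adjusted p = 0.957). These SEs and intervals rest on a spread shared over the 4 liver groups, which limma drew toward that of other genes. They do not describe the groups compared alone, and in the non-embolized lobe the SDs of ENSOCUG00000016287 were 0.12 and 0.17. Exact two-sided permutation tests on its own values gave unadjusted p-values from 0.31 to 0.946 for the same 4 comparisons of groups.

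**Figure D3:**
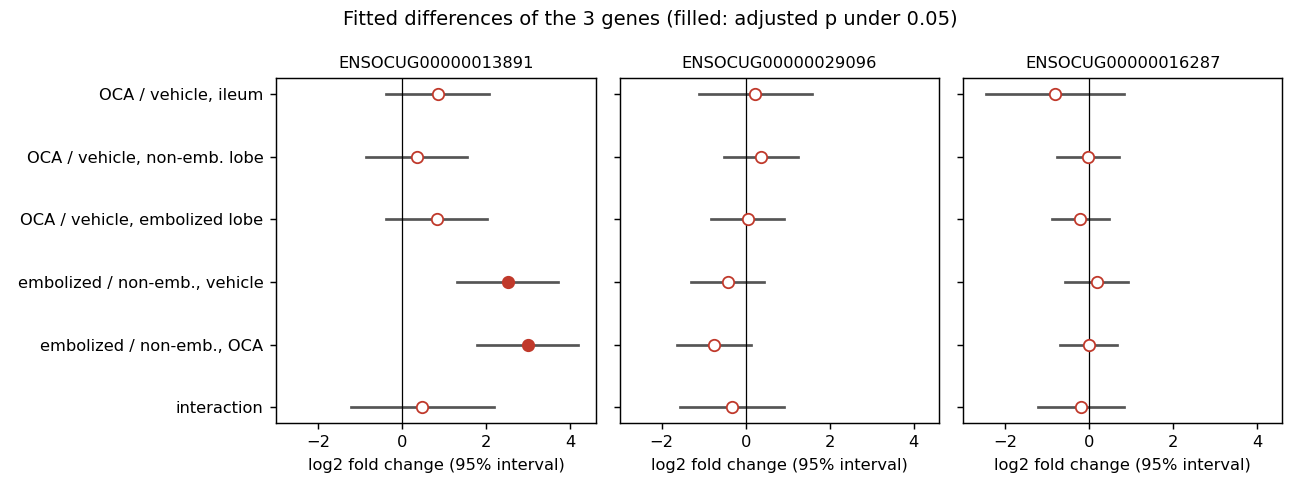
Points are log2 fold changes of normalized counts and bars their 95% intervals from limma, for OCA over vehicle, embolized over non-embolized lobe and the interaction; filled points had an adjusted p under 0.05. ENSOCUG00000013891 was called in both comparisons between lobes, at 2.98 after OCA and 2.51 after vehicle, and every other interval includes 0.

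In liver the shares of ENSOCUG00000016287 and ENSOCUG00000029096 ran against each other while their normalized counts did not. Over the 24 liver libraries, which share the fixed sum of reads, r was −0.65 between the shares and 0.32 between the log2 normalized counts. The genes most like ENSOCUG00000016287 in liver were ENSOCUG00000008441 (r = 0.85), ENSOCUG00000029156 (0.84) and ENSOCUG00000011311 (0.82), lower values than the other 2 genes had.

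In ileum ENSOCUG00000016287 was low and variable. It had 91 to 2516 normalized counts after OCA with a median of 778, against 409 to 5018 after vehicle with a median of 1065. OCA 2 was lowest and vehicle 3 highest, and the groups overlapped. OCA over vehicle was −0.81 ± 0.76 on the log2 scale (SE, n = 6 per group; limma adjusted p = 0.74), with a 95% interval of −2.46 to 0.83. Without ileum vehicle 6 and ileum OCA 1 it was −0.76, while single libraries moved it to −0.25 without OCA 2, −0.38 without vehicle 3 and −1.21 without OCA 3. Its SD of log2 normalized counts exceeded that of 97.0% of tested genes in ileum OCA and of 90.2% in ileum vehicle libraries.

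The ileum level of ENSOCUG00000016287 moved with other genes that are abundant in liver. The closest were ENSOCUG00000017348 (r = 0.99), ENSOCUG00000007986 (0.97) and ENSOCUG00000002057 (0.96) over 12 ileum libraries, and all 3 were highest in vehicle 3 and next highest in OCA 3. Their normalized counts in ileum ran from 3.79 to 206, from 3.79 to 151 and from 13.9 to 374. Their liver medians, on a separate scale, were 105893, 104429 and 240473. The ileum ratios below thus rest on few reads of these genes in some libraries, and their counting error was not computed. Within a library the ratio of reads does not depend on scaling. The ratio of ENSOCUG00000016287 to ENSOCUG00000017348 was 15.7 to 26.1 in ileum with a median of 22.8, and 17.0 to 39.3 in liver with a median of 25.5. To ENSOCUG00000007986 it had medians of 27.04 in ileum and 27.4 in liver, and to ENSOCUG00000002057 medians of 10.7 and 11.2. For each of the 3 genes the ranges of this ratio overlapped between ileum and liver. Whether RNA from liver contributed to the ileum values was not tested.

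**Figure D4:**
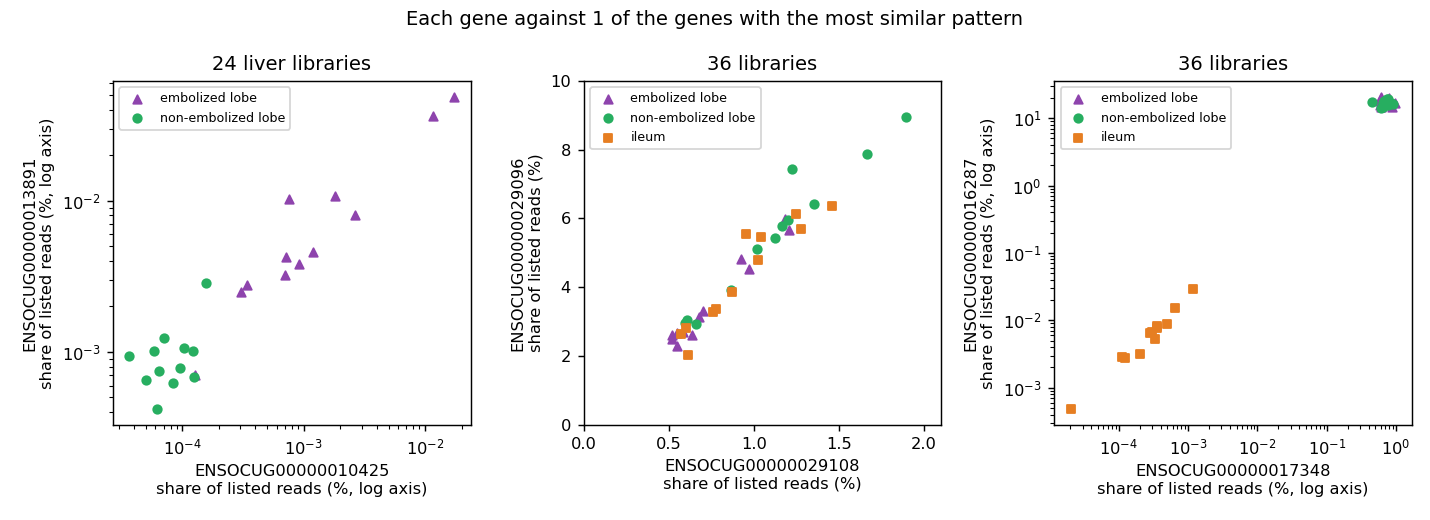
Each point is 1 library, with the share of listed reads of the gene on the vertical and of a gene of like pattern on the horizontal axis, on log axes for the left and right panels and linear axes from 0 for the middle one. Embolized OCA 4 and vehicle 5 lie at the upper right of the left panel, the 3 tissues share 1 band in the middle panel, and in the right panel ileum and liver lie on 1 line of like ratio with medians of 22.8 and 25.5.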

How the data were processed

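The deposited values are signal values, gene counts that the authors scaled by size factors in separate ileum and liver tables; the submitters' processing notes name STAR, RSEM and DESeq2 without versions. The genome build is not given in the sources used here, nor is the annotation. Dividing each library by its smallest step gave whole reads for 100% of values within 0.01, and shares were computed from those reads. Libraries were grouped by tissue and treatment labels.

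The main test was limma 3.58.1 (limma-trend, R 4.3.3) on log2(normalized count + 1), so fold changes of low genes are understated. Genes needed 10 normalized counts in 6 libraries of a table, which left 9010 in ileum and 8653 in liver; all 3 members passed in both tables. The 4 liver groups were fitted together, and p-values were adjusted by Benjamini-Hochberg over all tested genes, with calls at 0.05. Where a single library chose a gene, it was left out of that gene's tests (ENSOCUG00000013891 and ENSOCUG00000016287). ENSOCUG00000029096 was chosen by its level in most ileum libraries of both arms, so its ileum comparison kept all 12 and is not independent of the values that chose it. On recovered reads, edgeR 4.0.16 (quasi-likelihood) and DESeq2 1.42.0 were alternatives. EdgeR called 0 genes in ileum, 42 for OCA in the non-embolized lobe, 17 in the embolized lobe, and 2808 and 2287 between lobes after OCA and after vehicle. DESeq2 called 80, 265, 92, 3048 and 2546 in the same order. Exact permutation tests (scipy 1.17.1), free and within the vehicle pairs, were added after seeing the data.

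The members and lists were chosen with earlier results of these data known. Named genes are the members, the 3 genes per table with the highest Pearson correlation to each, the genes next in rank in the libraries that chose them, and the top gene of each library. The run of neighbouring IDs was chosen after its values were seen. Marker genes could not be looked up, since 0 of 38822 genes of the reference table carry Ensembl IDs. Same-numbered libraries of the vehicle lobes deviated together in 6 of 6 pairs (r from 0.14 to 0.53). They were taken to be paired on that ground alone, as the labels do not say so. Yet non-embolized OCA and vehicle libraries of the same number, which differ in treatment, had r from -0.32 to 0.54, over 0.1 in 4 of 6 pairs. Such correlations thus do not show that same-numbered lobes share a rabbit. In the OCA lobes same-numbered libraries did so in 5 of 6 pairs (r from -0.11 to 0.49). By the highest correlation, 5 of 6 embolized OCA libraries matched their own number, against 4 of 6 embolized vehicle libraries. The OCA pairs entered the replicate block but no exact test within pairs, so the 2 treatments were not treated alike.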

Additional observations from a re-analysis of the deposited data

Results flagged for a closer look

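In 7 of 18 groups of 6 libraries, 1 library's gap to the next exceeded 0.625 of the group's range. Of the 18 groups, 4 were used to choose the genes, and among the 14 others 6 held such a library. Chance gives about 1 in 20 groups, or 0.7, only where values are normally distributed. These were counts without a log scale, and every library flagged was the highest of its group. The number of such groups is therefore description and carries no test. For ENSOCUG00000013891 there were 5 such libraries. Embolized OCA 4 had 5785 normalized counts, against 1819 in the next. Embolized vehicle 5 had 4453 against 1498, and non-embolized OCA 2 had 379 against 174. Ileum OCA 1 had 2013 against 718, and ileum vehicle 6 had 5480756 against 506. ENSOCUG00000029096 had 1217950 in embolized vehicle 6, against 612933 in the next library. ENSOCUG00000016287 had 5018 in ileum vehicle 3, against 1621 in the next. The value in ileum vehicle 6 is the one that chose its gene and is given as description only.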

How the results depend on the processing

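Of 681 alternatives over 36 results, 652 kept the direction and the side of the threshold, 23 changed sign, 2 lost their call and 4 moved beyond the spread. All sign changes were in differences that were not called. For ENSOCUG00000013891, OCA over vehicle in ileum was -1.56 with vehicle 6, and the interaction was -0.30 in replicates 1 to 3. For ENSOCUG00000029096, OCA over vehicle in the embolized lobe was -0.025 in replicates 1 to 3, and the interaction was 0.0075 with sample weights. For ENSOCUG00000016287, OCA over vehicle was 0.043 in ileum with sample weights and 0.029 in the non-embolized lobe in replicates 4 to 6. Its difference between lobes after OCA was 0.042 with equal totals, 0.0062 with equal totals outside the 3 genes, 0.027 with equal upper quartiles, 0.046 with sample weights and 0.14 in replicates 1 to 3.

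Leaving out 1 library at a time, the ENSOCUG00000013891 interaction ran from -0.00473 to 0.99, ENSOCUG00000029096 for OCA in the embolized lobe from -0.15 to 0.27, and ENSOCUG00000016287 from -0.092 to 0.031 for OCA in the non-embolized lobe and from -0.042 to 0.061 between lobes after OCA. The lobe difference of ENSOCUG00000013891 after vehicle was 2.66 in replicates 4 to 6 and no longer called (limma adjusted p = 0.129; 3 libraries per group), the adjusted p over its alternatives ran from 3.58e-06 to that value. With a replicate block it was 2.51 (limma adjusted p = 0.00234), and the block changed no limma call of the 3 genes. In the exact permutation test within pairs, chosen after seeing the data, the same difference of 2.51 had p = 0.0625. It was counted as a lost call. That exact permutation p is unadjusted and cannot fall below 0.03125, unlike the adjusted limma p that defines calls. The mean share of ENSOCUG00000013891 moved from single libraries: without embolized OCA 4 it was 0.00629%, without embolized vehicle 5 it was 0.00391%, without ileum OCA 1 it was 0.0024% and without ileum vehicle 6 it was 0.00195%. Counted over reads outside the 3 genes, the mean share of ENSOCUG00000016287 was 21.8% in embolized OCA, 23.3% in embolized vehicle, 21.7% in non-embolized OCA and 21.996% in non-embolized vehicle libraries. Equal totals moved the median of all genes to 0.15 for OCA in the embolized lobe and to 0.14 for the interaction. The number of genes called ran from 0 to 349 in ileum, 1 to 398 and 0 to 298 for OCA in the non-embolized and embolized lobes, 880 to 3317 between lobes after OCA, up to 3443 between lobes after vehicle, and 0 to 5 for the interaction. The highest count for OCA in the embolized lobe when 1 library was left out, 298, came without vehicle 5; without any other single library it was at most 39. In the non-embolized lobe the highest such count was 112, without vehicle 3.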
